A study of Mus musculus with 3 samples.

Results

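Of the 21887 protein-coding genes in the RefSeq table of GRCm38.p6 (mm10), 83 carry a symbol of the heat shock and chaperone families, and EZH2 occupancy was read at these genes. The choice followed symbols alone (Dnaja, Dnajb or Dnajc with a number, Hspa, Hspb, Hspd, Hspe, Hsph or Hsp with a number, and Cct with a number). No measured value enters this rule, but the families and the lists by role used below were picked when earlier results of these data were known. The macrophages were grown for 5 days from femur and tibia marrow of adult C57BL/6 mice in DMEM with M-CSF conditioned medium, and no tissue or cell type marker can be checked in a list of EZH2 intervals. The samples were 1 EZH2 ChIP-seq library of cells given LPS for 2 h, 1 EZH2 library of non-treated cells (NT) and 1 input DNA library, for which no intervals were used here. A service company carried out the ChIP-seq, per the labels. In the file the stimulated library is called TLR. It was taken as the LPS library, since no other EZH2 sample was stimulated and LPS acts through a Toll-like receptor, and this is a limit on each LPS value below.

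Chaperones bind unfolded proteins and help them to fold, to cross membranes or to be degraded. Hsp70 proteins work in cycles of ATP use that J-domain proteins (Dnaja, Dnajb and Dnajc) start and Hsp110 proteins reset, Hsp90 acts on partly folded signalling proteins, small heat shock proteins hold clients without ATP, and the TRiC/CCT ring folds actin and tubulin. Under heat or protein stress, heat shock factor 1 (Hsf1) binds heat shock elements in the promoters of the inducible members and switches them on within minutes. EZH2 is the enzyme of polycomb repressive complex 2. It methylates lysine 27 of histone H3, a mark of repressed genes, and in mammals the complex is drawn mainly to CpG-rich promoters.

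The promoters below are those that the results turn on, with matches to the heat shock element GAANNTTC or TTCNNGAA in capitals. Each is the 250 bases before a RefSeq start site (GRCm38.p6, 5′ to 3′). Dnajb1 had the lowest ratio of LPS to NT value among the members with intervals in both libraries. At Hspa1a and Hspa1b an interval covered the promoter in NT and not in LPS, and at Hspb1 intervals covered it in both libraries. Dnajb6 had an NT interval alone and the 3-unit form of the element, and Hspa5 had no interval.
Dnajb1, chr8:83607925-83608174, plus strand: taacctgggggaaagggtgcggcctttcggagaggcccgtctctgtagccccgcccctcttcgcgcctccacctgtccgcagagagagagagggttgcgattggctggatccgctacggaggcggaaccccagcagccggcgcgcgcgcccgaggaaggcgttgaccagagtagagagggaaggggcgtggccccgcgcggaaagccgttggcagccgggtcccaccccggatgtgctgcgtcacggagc
Hspa1a, chr17:34972157-34972406, minus strand: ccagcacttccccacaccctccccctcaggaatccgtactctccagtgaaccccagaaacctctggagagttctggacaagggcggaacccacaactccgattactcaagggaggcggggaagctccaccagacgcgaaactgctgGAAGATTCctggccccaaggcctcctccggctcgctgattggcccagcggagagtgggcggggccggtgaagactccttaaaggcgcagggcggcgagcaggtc
Hspa1b, chr17:34959239-34959488, minus strand: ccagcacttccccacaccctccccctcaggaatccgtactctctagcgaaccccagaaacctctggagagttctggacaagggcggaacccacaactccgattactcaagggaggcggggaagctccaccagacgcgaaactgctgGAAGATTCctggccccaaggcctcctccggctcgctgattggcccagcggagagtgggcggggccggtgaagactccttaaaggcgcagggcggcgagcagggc
Hspb1, chr5:135887669-135887918, plus strand: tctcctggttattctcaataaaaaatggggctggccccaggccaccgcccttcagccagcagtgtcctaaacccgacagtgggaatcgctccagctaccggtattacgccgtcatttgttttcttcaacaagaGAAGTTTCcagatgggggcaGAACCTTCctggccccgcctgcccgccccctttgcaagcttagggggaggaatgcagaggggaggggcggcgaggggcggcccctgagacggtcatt
Dnajb6, chr5:29735648-29735897, plus strand: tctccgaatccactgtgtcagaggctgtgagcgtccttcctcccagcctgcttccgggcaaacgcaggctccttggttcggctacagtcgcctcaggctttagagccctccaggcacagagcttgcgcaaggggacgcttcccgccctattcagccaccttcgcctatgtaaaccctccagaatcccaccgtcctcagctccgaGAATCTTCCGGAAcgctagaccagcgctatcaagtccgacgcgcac
Hspa5, chr2:34771840-34772089, plus strand: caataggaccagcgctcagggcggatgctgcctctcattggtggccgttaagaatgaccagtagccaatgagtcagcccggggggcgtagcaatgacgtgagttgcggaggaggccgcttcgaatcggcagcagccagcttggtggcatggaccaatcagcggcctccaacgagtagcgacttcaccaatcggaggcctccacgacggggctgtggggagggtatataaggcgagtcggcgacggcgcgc

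Of these 250 bases, LPS intervals covered 164 at Dnajb1, 0 at Hspa1a, 0 at Hspa1b, 250 at Hspb1, 0 at Dnajb6 and 0 at Hspa5. NT intervals covered all 250 at Dnajb1, Hspa1a, Hspa1b, Hspb1 and Dnajb6, and 0 at Hspa5. The Hspa1a and Hspa1b stretches were identical at 247 of 250 positions, so reads from these copies are hard to place, and the values at either gene are uncertain for that reason.

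A majority of the chaperone genes had an NT interval, and far fewer had an LPS interval. An LPS interval lay within 2.5 kb of either annotated gene end at 17 of 83 members (20.5%), against 16.2% of all protein-coding genes. An NT interval lay there at 45 members (54.2%), against 38.2% of all genes. Both libraries had one at 17 members (15.6% of all genes), NT alone at 28 (22.6% of all genes) and neither at 38 (61.3% of all genes). No member had an LPS interval alone, which 0.535% of all genes had.

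With 1 library per condition there is no replicate check on any of these values, and no test between conditions was possible. How deeply either library was sequenced is also not known. The LPS list was the shorter one, with 4651 intervals and summit values of 7 to 100 (median 16), where the NT list had 9643 intervals and summit values of 11 to 253 (median 27). The summit value is the authors' score at the highest point of an interval, in a unit that the sources used here do not give, and its error is not known. A lower value or a missing interval in LPS is thus a property of the lists, and less EZH2, fewer cells that carry it and shallower sequencing cannot be told apart.

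At members with intervals, the highest summit value had a median of 14 in LPS (17 members) and 28 in NT (45 members), where all protein-coding genes with intervals had medians of 18 in LPS and 28 in NT. The distinct intervals at members had a median width of 1047 bp in LPS (19 intervals) and 1226 bp in NT (49 intervals), against 1490 bp in LPS and 1301 bp in NT for the intervals of all genes. Of NT members, 37.8% had an LPS interval too, close to the 40.9% of all genes with an NT interval. By NT value the members also ran beside all genes, in groupings made after the values were seen. An LPS interval was present at 2 of 14 members with an NT value up to 25 (all genes 16.9%), at 8 of 21 over 25 and up to 35 (all genes 35%) and at 7 of 10 over 35 (all genes 80.4%).

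**Figure D1:**
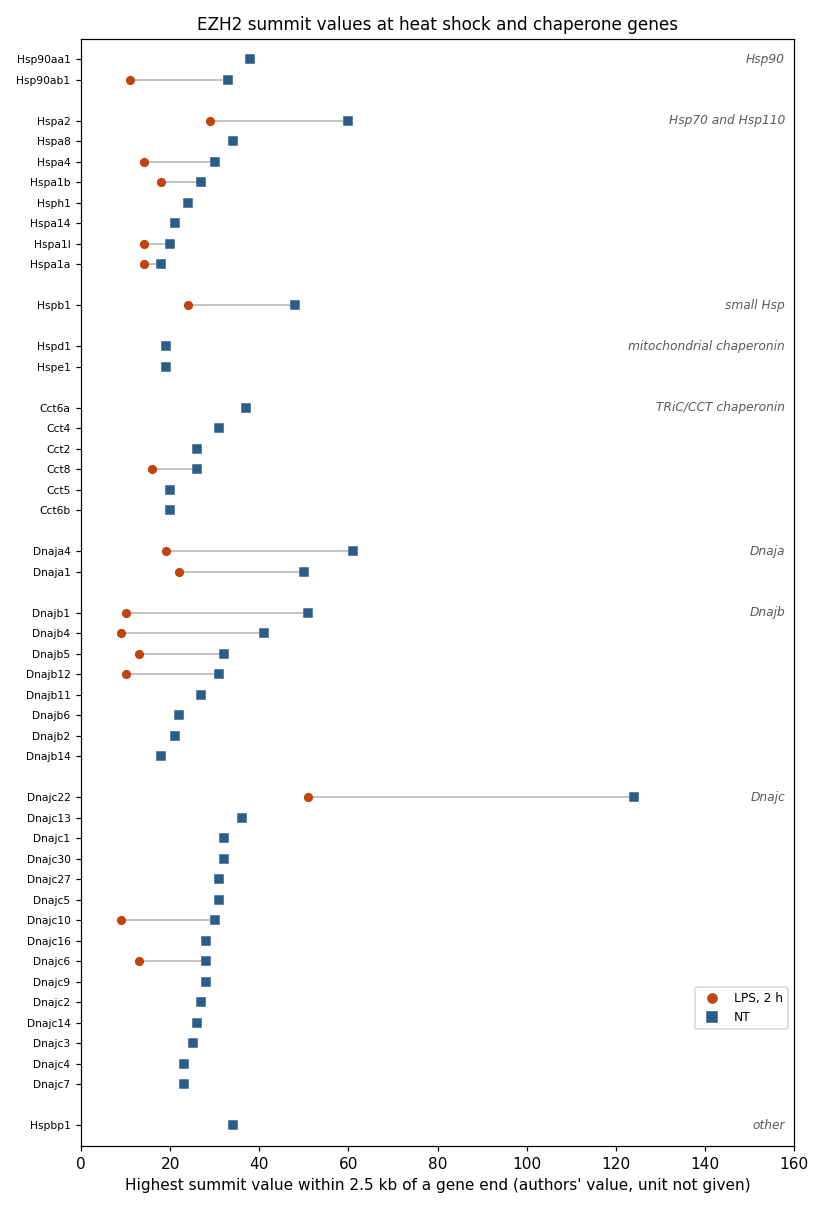
Highest EZH2 summit value within 2.5 kb of a gene end (x axis, authors' value of unknown unit) at the 45 members with an interval, with circles for LPS and squares for NT, grouped by family. The 17 members with both marks have the LPS value left of the NT value, and Dnajc22 stands far to the right at 51 in LPS and 124 in NT.

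The Hsp70 and Hsp110 family had intervals at 5 of 14 members in LPS and 8 of 14 in NT. Hspa2, an Hsp70 known mainly from male germ cells, had summit values of 29 in LPS and 60 in NT. Its LPS interval of 3102 bp and its NT interval of 3644 bp covered nearly the whole short gene, with summits 1500 bp (LPS) and 1532 bp (NT) inside it. Hspa4, an Hsp110 type exchange factor of Hsp70, had 14 in LPS and 30 in NT over its 5′ end. NT intervals without LPS intervals lay at Hspa8 (34), the constitutive cytosolic Hsp70, at Hsph1 (24), the inducible Hsp110, and at Hspa14 (21). No interval of either library lay at Hspa5, the Hsp70 of the endoplasmic reticulum (BiP), Hspa9, the mitochondrial Hsp70, Hspa4l, Hspa12a, Hspa12b or Hspa13.

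At the heat-inducible pair Hspa1a and Hspa1b on chromosome 17, the libraries differed in where the intervals lay. At Hspa1a, the LPS intervals ran from 34968954 to 34969739 (summit value 14) and from 34969766 to 34970219 (14), over the downstream end of the gene, and the NT interval ran from 34971866 to 34972579 (18), over its 5′ end. None of them overlapped, which was so at 1 of 17 members and at 0.585% of all genes with intervals in both libraries. At Hspa1b, the LPS interval ran from 34956925 to 34957647 (18). The NT intervals there ran from 34956625 to 34957300 (27), overlapping the LPS one, and from 34958942 to 34959874 (21), over the 5′ end. The LPS and the first NT interval had their summits at the same position, 2150 bp downstream of the 5′ end.

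Thus at both copies the 5′ end carried an NT interval and no LPS interval, while the downstream part of the gene carried an LPS interval. The 5′ end was covered in NT and not in LPS at 2 of the 15 members with known strand and intervals in both libraries, and at 13.6% of such genes in all. These shares are close, so the absence of an LPS interval at the 5′ end was as frequent among other genes. The neighbouring Hspa1l, a testis Hsp70, had 14 in LPS and 20 in NT. Its LPS intervals were the one of Hspa1a from 34969766 to 34970219 and one beside Lsm2 (9), and its NT intervals were the 5′ one of Hspa1a (18) and one beside Lsm2 (20), so none was at its own 5′ end.

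Hsp90 genes had intervals at 1 of 3 members in LPS and 2 of 3 in NT. Hsp90ab1, the constitutive cytosolic Hsp90, had 11 in LPS and 33 in NT, with summits 3 bp (LPS) and 141 bp (NT) from an annotated gene end. Hsp90aa1, its inducible counterpart, had an NT interval alone (38), the highest NT value among the 28 members with no LPS interval. Hsp90b1, the Hsp90 of the endoplasmic reticulum, had none.

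Small heat shock protein genes had the smallest share with an NT interval among the families, with intervals at 1 of 8 members in each library. That member was Hspb1, the stress-inducible Hsp25 of mouse, with 24 in LPS and 48 in NT. Its LPS intervals, from 135887294 to 135888213 (23) and from 135888232 to 135889748 (24) on chromosome 5, lay inside the NT interval from 135887293 to 135889780. No interval lay at Hspb8, a partner of the co-chaperone Bag3, at Hspb2, Hspb3, Hspb6 and Hspb7, known mainly from muscle, at Hspb9, known from testis, or at Hspb11.

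The chaperonin genes mostly had NT intervals alone. Of 9 genes taken as TRiC/CCT by a Cct symbol alone, 1 had an LPS interval and 6 an NT interval. Cct8 had 16 in LPS and 26 in NT, and NT intervals alone lay at Cct6a (37), Cct4 (31), Cct2 (26), Cct5 (20) and Cct6b (20), whose summit was nearer to Zfp830. Cct3, Cct7 and Cct8l1 had no interval. The mitochondrial chaperonin genes Hspd1 and Hspe1, which stand head to head on chromosome 1, shared a single NT interval from 55086968 to 55088921 (19) and had no LPS interval.

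**Figure D2:**
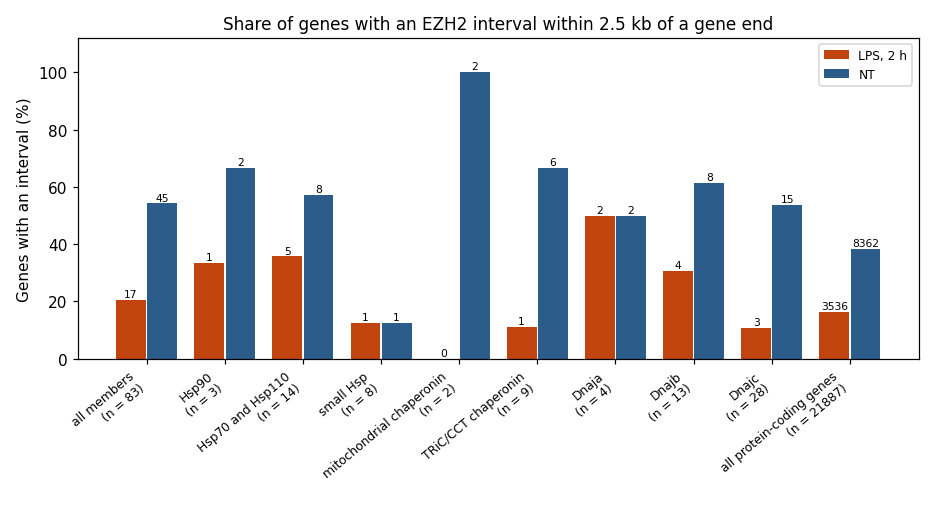
Percentage of genes with an EZH2 interval within 2.5 kb of a gene end in LPS (left bar) and NT (right bar) for all 83 members, each family and all 21887 protein-coding genes, with the number of genes over each bar. The bars of all members stand at 20.5% in LPS and 54.2% in NT, and those of small heat shock protein genes at 12.5% in both.

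Among members with intervals in both libraries, J-domain genes held the lowest ratios of LPS to NT value. Of 4 Dnaja genes, which encode general Hsp70 partners, Dnaja1 had 22 in LPS and 50 in NT and Dnaja4 had 19 in LPS and 61 in NT, while Dnaja2 and the mitochondrial Dnaja3 had no interval. Of 13 Dnajb genes, 4 had an LPS and 8 an NT interval. Dnajb1, the main inducible partner of Hsp70, had 10 in LPS and 51 in NT. Its LPS interval ran from 83608011 to 83608978 and its NT interval from 83607660 to 83608964 on chromosome 8, with summits 169 bp (LPS) and 145 bp (NT) downstream of the 5′ end, so the value differed while the position hardly did.

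Dnajb4, a close relative of Dnajb1, had 9 in LPS and 41 in NT. Both intervals covered its 5′ end, and both summits were slightly nearer to an end of the neighbouring Fubp1. The LPS summit lay 8 bp from the Dnajb4 5′ end and 2 bp from Fubp1, and the NT summit 192 bp and 182 bp. Dnajb5, another relative, had 13 in LPS and 32 in NT, and Dnajb12, a J-domain protein of the endoplasmic reticulum membrane, had 10 in LPS and 31 in NT. NT intervals alone lay at Dnajb11 (27), an endoplasmic reticulum partner of BiP, Dnajb6 (22), a suppressor of protein aggregation, Dnajb2 (21) and Dnajb14 (18), at which the summits were nearer to H2az1 and Lamtor3. Dnajb9, which is induced by endoplasmic reticulum stress, and Dnajb3, Dnajb7, Dnajb8 and Dnajb13, known mainly from testis, had no interval.

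Of 28 Dnajc genes, 3 had an LPS and 15 an NT interval. Dnajc22 had the highest values of all members, 51 in LPS and 124 in NT, in a broad domain on chromosome 15. The LPS interval ran from 99093040 to 99099750 and the NT interval from 99092726 to 99099971, and both also met C1ql4, a gene of the C1q family. Their summits lay outside Dnajc22, 1790 bp (LPS) and 2206 bp (NT) from its nearer end. Dnajc10, a disulfide reductase of the endoplasmic reticulum, had 9 in LPS and 30 in NT. Dnajc6, the clathrin uncoating factor auxilin of neurons, had 13 in LPS and 28 in NT.

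The other 12 had NT intervals alone, with values of 23 to 36. They were Dnajc13 (36), an endosomal protein, Dnajc1 (32), Dnajc30 (32), Dnajc5 (31), the cysteine string protein of secretory vesicles, Dnajc27 (31), Dnajc9 (28), Dnajc16 (28), Dnajc2 (27), a ribosome-associated chaperone, Dnajc14 (26), Dnajc3 (25), Dnajc4 (23) and Dnajc7 (23). The 13 Dnajc genes with no interval were Dnajc5b, Dnajc5g, Dnajc8, Dnajc11, Dnajc12, Dnajc15, Dnajc17, Dnajc18, Dnajc19, Dnajc21, Dnajc24, Dnajc25 and Dnajc28. The remaining symbols were Hspbp1, an exchange factor of Hsp70, with an NT interval alone (34) nearest to Ppp6r1, and Hspbap1, with none.

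Each ratio was read against the median over all genes with intervals in both libraries, which was 0.491. This was meant to take out a factor that differs between the lists but is alike for all genes, such as depth. A ratio was called low under 0.327 and high over 0.737, which is 1.5 times below and above that median. The 17 members had a median ratio of 0.44. Low ratios were found at 5 of them (29.4%), against 8.31% of 3419 genes, and a high ratio at 1 (5.88%), against 4.53%. The low members were all J-domain genes, Dnajb1 (0.196), Dnajb4 (0.22), Dnajc10 (0.30), Dnaja4 (0.311) and Dnajb12 (0.323), with Hsp90ab1 next at 0.333. The 28 members with an NT interval alone had no ratio, so any lower LPS signal there is missing from this ranking. Among them were Hsp90aa1 (38 in NT) and Cct6a (37 in NT). Of the 3419 genes, 12 had a ratio as low as that of Dnajb1 or lower, itself counted, and 28 as low as that of Dnajb4 or lower.

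Among genes with an NT value within 5 of their own, 5 of 457 had a ratio as low as Dnajb1 and 6 of 671 as low as Dnajb4, again with these genes counted. Over the members, the median ratio of such groups ran from 0.458 at Dnajb1 to 0.591 at Hspa1a, so it was not 0.491 at every NT value. The LPS values of Dnajb1, Dnajb4, Dnajc10 and Dnajb12 were 9 or 10, near the lowest value of 7 in the LPS list, and the part of this floor in their low ratios was not tested. The high member was Hspa1a (0.778), where the compared intervals lay at different ends of the gene. In between were Dnajb5 (0.406), Dnajc22 (0.411), Dnaja1 (0.44), Dnajc6 (0.464), Hspa4 (0.467), Hspa2 (0.483), Hspb1 (0.50), Cct8 (0.615), Hspa1b (0.667) and Hspa1l (0.70). The ratio of Hspa1l also compares unlike intervals, the LPS one at the downstream end of Hspa1a (14) and the NT one beside Lsm2 (20). In the merged region beside Lsm2, which held intervals of both libraries, its values were 9 in LPS and 20 in NT, a ratio of 0.45.

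**Figure D3:**
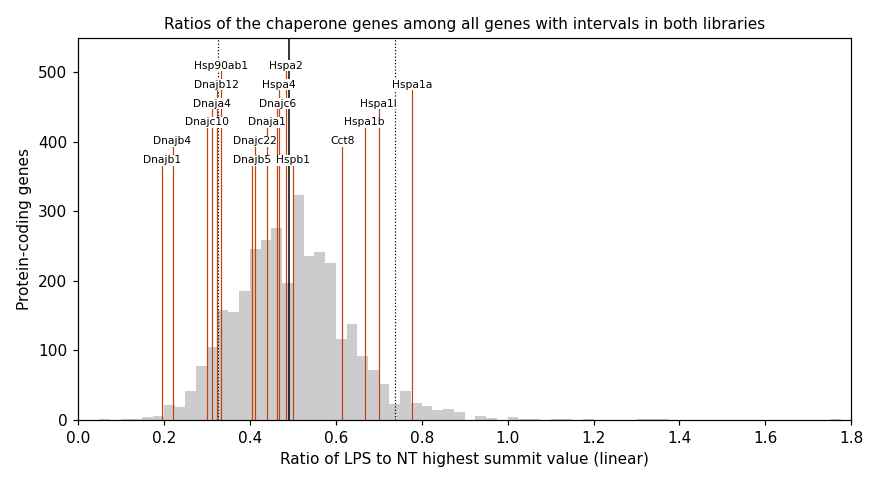
Histogram of the ratio of LPS to NT highest summit value (x axis, linear) over the 3419 protein-coding genes with intervals in both libraries (y axis, number of genes), with a labelled line for each of the 17 members. The solid black line is the median of 0.491 and the dotted lines are the limits of 0.327 and 0.737, with 5 J-domain genes left of the lower one and Hspa1a right of the upper one.

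Most intervals sat over gene starts. Among members with known strand, the annotated 5′ end lay inside an interval at 12 of 15 with an LPS interval (66.5% of such genes in all) and 30 of 37 with an NT interval (76.6% of such genes in all). The exceptions in LPS were Hspa1a, Hspa1b and Hspa1l. Because windows also take in neighbours, 4 of 19 LPS intervals and 22 of 49 NT intervals met a gene that is no member. At 9 of 45 members with an NT interval every NT summit was nearer to an end of another gene. These were Cct6b, Dnajb4, Dnajb14, Dnajc4, Dnajc7, Dnajc14, Hspbp1, Hspa1l and Hspe1, whose summit was nearer to the end of Hspd1. The shares that involve neighbours were not computed over all genes, so how usual they are is not known.

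**Figure D4:**
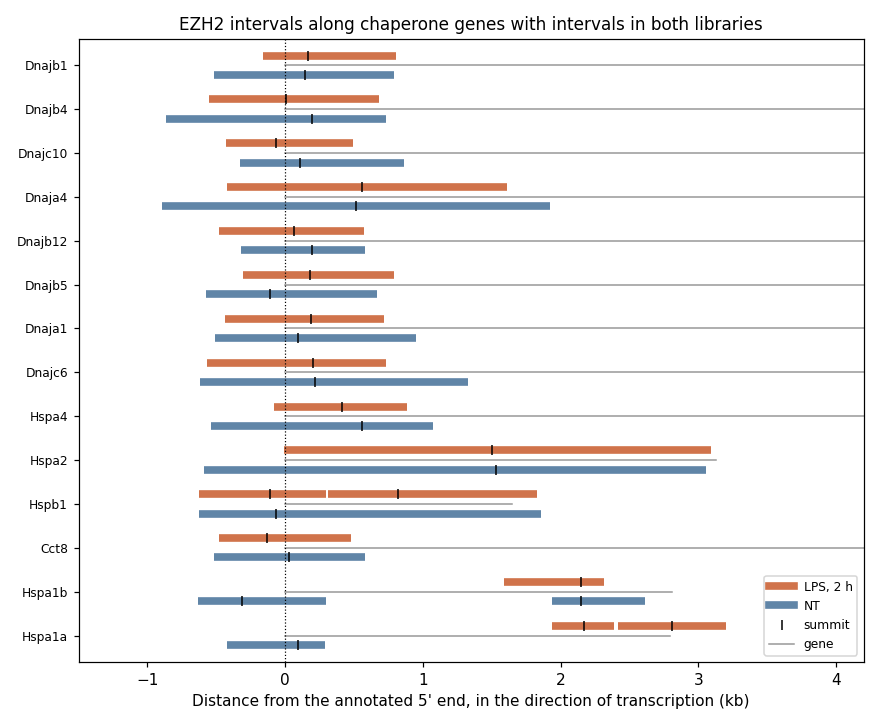
EZH2 intervals (thick bars, LPS above NT, with a tick at each summit) at 14 members with intervals in both libraries and known strand. Distances are in kb from the annotated 5′ end, with the lowest ratio at the top and the highest at the bottom. The thin grey line is the gene. Hspa1l, whose intervals had their summits nearest to other genes, is left out. At 12 genes both libraries cover the 5′ end, and at Hspa1b and Hspa1a the bars of LPS lie only in the downstream part.

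The lists by role are read beside all protein-coding genes, of which 16.2% had an LPS and 38.2% an NT interval, with median values of 18 in LPS and 28 in NT. The 16 genes listed as induced by heat shock include Hspa8 and Hsp90ab1, called constitutive above. Of these 16 genes, 8 had an LPS interval (50%) and 14 an NT interval (87.5%). Median values were 14 in LPS and 31.5 in NT, and Hspa4l and Hspb8 had no interval. Some of these genes, Dnajb1 and Hsp90ab1 among them, had been reported with their values before the list was made, so its counts are a description. Of 13 members of the endoplasmic reticulum, 3 had an LPS (23.1%) and 8 an NT interval (61.5%), with medians of 10 in LPS and 29 in NT. Of 10 mitochondrial members, 0 had an LPS interval and 4 (40%) an NT interval, which is near the share of all genes in NT. These were Dnajc30, Dnajc4, Hspd1 and Hspe1. Of 15 members known mainly from testis or muscle, 2 had an LPS interval (Hspa2 and Hspa1l) and 3 an NT interval (those and Cct6b), which is 13.3% in LPS and 20% in NT.

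Promoter sequence was compared in the 300 bases from 250 before to 50 after a start, for the 68 members and 17492 protein-coding genes with an entry. Members with intervals in both libraries had a median of 23 CpG dinucleotides, those with an NT interval alone 25.5 and those with no interval 19. For all genes these medians were 22, 23 and 6, so the members without intervals had more CpG than other genes without intervals. An LPS interval was present at 8 of 35 members with 23 or more CpG (all genes 26.1%) and at 7 of 33 with fewer (all genes 11.2%). These counts, like those of all genes, take intervals at either gene end. The 7 include Hspa1a, Hspa1b and Hspa1l, at which no LPS interval covered the 5′ end. They also include Dnajc6, with no LPS interval within 2.5 kb of the start used for its promoter. An NT interval was present at 22 of these 35 (all genes 67%) and at 15 of these 33 (all genes 26.1%). Among the printed stretches of 250 bases, intervals of both libraries met those of Dnajb1 (27 CpG) and Hspb1 (12), an NT interval alone met those of Dnajb6 (18), Hspa1b (15) and Hspa1a (14), and no interval met that of Hspa5 (22).

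**Figure D5:**
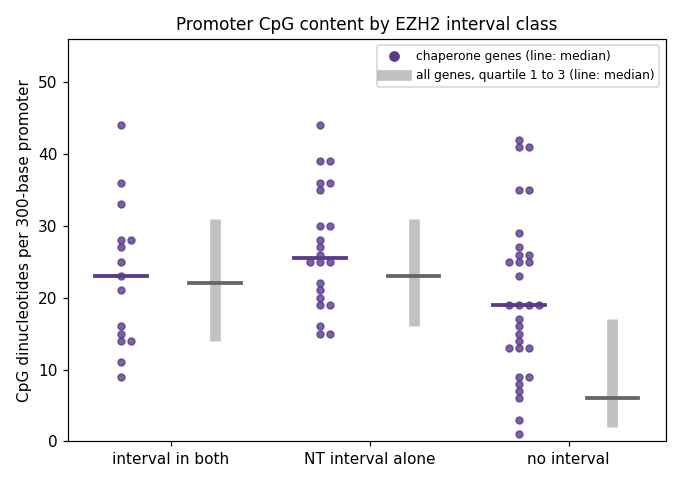
Number of CpG dinucleotides in the 300-base promoter (y axis) of members with intervals in both libraries (n = 15), with an NT interval alone (n = 22) and with none (n = 31); points are genes and purple lines their medians of 23, 25.5 and 19. Grey bars run from the first to the third quartile of all protein-coding genes of the same class and grey lines their medians of 22, 23 and 6.

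The heat shock element in its 2-unit forms, GAANNTTC and TTCNNGAA, each of which reads the same on both strands, was present in 15 of 68 member promoters (22.1%) and in 13.9% of all promoters. It was present in 5 of 15 with intervals in both libraries (33.3%, all genes 10.5%), which were Hspa1a, Hspa1b, Hspb1, Dnaja1 and Dnajc10. Hspa1a and Hspa1b have nearly the same promoter sequence, and no LPS interval covered either promoter. It was present in 6 of 22 with an NT interval alone (27.3%, all genes 10.8%) and in 4 of 31 with none (12.9%, all genes 15.9%). The 3-unit form of the element, in which a further GAA or TTC follows after any 2 bases in the alternating order, was searched on both strands and contains the 2-unit forms. It was present at Dnajb6, Hspe1 and Hsph1 (4.41% of members, 0.48% of all promoters), each with an NT interval alone. A match describes these letters only and is not a site of binding.

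Other genes of the chaperone network had NT intervals about as often as the members and LPS intervals less often in count, a difference that was not tested. These were 58 genes, such as co-chaperones, heat shock factors, prefoldins and folding enzymes. Of them, 6 had an LPS interval (10.3%, against 16.2% of all genes) and 32 an NT interval (55.2%, against 38.2% of all genes). None of the 58 had one in LPS alone. Of those with an NT interval, 18.8% had an LPS interval too, against 40.9% of all genes. Hsf1 had an NT interval alone (28). Among the highest NT values were those at the disulfide isomerase Pdia3 (47 in NT alone), the endoplasmic reticulum lectin chaperone Calr (44 in NT alone), the mitochondrial Hsp90 Trap1 (15 in LPS and 43 in NT) and the lectin chaperone Canx (12 in LPS and 42 in NT). The ratio was low at Canx alone (0.286), and the median ratio over the 6 genes was 0.512, against 0.491 over all genes.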

How the data were processed

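EZH2 ChIP-seq of cultured mouse macrophages gave 1 library per condition. Per the submitters' processing notes, BWA, SICER and the build mm10 were used, with no version or role given. The authors deposited 5 tracks, which are intervals and summits of each EZH2 library and merged regions. The summit score was deposited by the authors as a whole number, and its unit, scaling, filters, depth and use of the input are not given in the sources used here. SICER joins neighbouring windows, so genes can share an interval.

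Here each interval was paired with its summit, positions were made 1-based, and an interval was assigned to a gene when it met by 1 bp or more a window of 2.5 kb on either side of an annotated gene end (Python 3.11.15, RefSeq table of GRCm38.p6). The search was tested on simulated data with planted intervals. A further 18 symbols matched the rule but were not protein-coding. Strand came from the RefSeq promoter table. No planned test was made, because each condition had 1 library. The rule for members uses symbols and no measured value, but it and the lists were chosen with earlier results of these data known. Of the symbols listed by role, Dnajc20 and Hspb10 are not in the gene table. The rule for named genes took all members with intervals in both libraries or in LPS alone, the 10 highest NT values among NT alone, the heat-inducible list, Hspa5, Hsp90b1, Hsf1 and the 5 highest other genes, of which 1 is not reported here. The other members were named after their values were seen, to account for each. Alternatives were 1 kb and 5 kb windows, gene bodies, summits in windows, start sites, stricter lists and merged regions.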

Additional observations from a re-analysis of the deposited data

How the results depend on the processing

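No paired analysis was possible because LPS and NT had a single library each. Of 190 counts and medians recomputed under the alternatives, 164 stayed within 1.5 times the reported value and 26 did not. Of 492 values and ratios of single genes 467 did and 25 changed more. Some of those that stayed could not move, such as LPS counts when only NT was shortened, and values of 0 under stricter lists. These tallies are thus no measure of how firm the results are. Stricter lists and start site windows use fewer intervals or genes by construction; for other changes the cause was not tested. Among intervals that reached their library's median value (2511 in LPS and 4830 in NT), members with an interval numbered 7 in LPS (9.75% of all genes) and 28 in NT (21.3%), with 6 in both and 1, Cct8, in LPS alone, and other chaperone network genes numbered 3 in LPS and 16 in NT. By family the LPS counts became 0 for Hsp90, 2 for Hsp70 and Hsp110, 0 for Dnajb and 1 for Dnajc, and the NT counts 4 for Hsp70 and Hsp110, 0 for the mitochondrial chaperonin, 2 for TRiC/CCT and 5 for Dnajb. The intervals of Dnajb1, Dnajb4, Dnajb12 and Dnajc10 in LPS were not in that list. With NT shortened to about as many intervals as LPS (4474, all over a value of 27), 25 members had an NT interval (19.7% of all genes), 12 in NT alone (7.63%) and 4 in LPS alone (4.03%), which were Cct8, Hspa1a, Hspa1b and Hspa1l. That setting left NT intervals at 11 other network genes, 3 Hsp70 and Hsp110, 0 mitochondrial chaperonin, 2 TRiC/CCT and 4 Dnajb genes. Around start sites alone, which 68 members have, the Dnajc count became 1 in LPS (20 of 28 genes left). Dnajc22 has no start entry, while Dnajc6 has one with no LPS interval near it. The NT interval of Hspbp1 was no longer counted, which made the count of the other symbols 0. The Hsp90 counts of 0 in LPS and 0 in NT say nothing there, since Hsp90aa1 and Hsp90ab1 have no start entry and 1 of 3 genes was left. The median ratio of the members lay between 0.426 and 0.462 under all alternatives run for it, and with a 5 kb window Hsp90ab1 had a ratio of 0.576. Depth and the threshold of each list are unknown, so an absent LPS interval marks a value that was not listed.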
